A study of Mus musculus with 30 samples.

Results

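The members described here are 10 genes for transcription factors and regulators of cortical neurons: Mef2c, Tbr1, Cux1, Cux2, Neurod1, Neurod2, Neurod6, Sox11, Sox4 and Id2. Every probe set whose array annotation gives 1 of these symbols alone was taken, which gave 29 of the 36899 probe sets on the arrays. Of these, 26 were bright enough to be tested, among 20724 tested probe sets in all. The 3 that were not tested are 1 each of Cux1, Neurod1 and Sox11.

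RNA was taken from primary visual cortex (V1), from mice raised under standard conditions, at postnatal day 14 (P14), around the time the eyes open, at P28, when vision still shapes the circuit strongly, and at P60, in the young adult. Each age was represented by litters from which V1 was microdissected, 3 at P14, 3 at P28 and 4 at P60, with no other treatment or genotype in the labels. The sources used here do not give strain, sex or the number of animals per litter. The RNA of each litter was read on the Affymetrix arrays MG-U74Av2, Bv2 and Cv2, called chips A, B and C, and each value is the MAS5 signal of a probe set, an intensity on a linear scale. One probe set's signal cannot be set against another's, so levels are compared only between litters within a probe set.

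The genes act at different steps of a cortical neuron's life. Sox11 and Sox4 encode SOXC proteins of young neurons, and the NeuroD proteins are basic helix-loop-helix activators that bind E-box sequences together with E proteins and drive neuronal differentiation. Id2 encodes a helix-loop-helix protein without a DNA-binding region, which ties up E proteins. Tbr1 marks and specifies deep-layer projection neurons, Cux1 and Cux2 mark upper-layer neurons, and Mef2c encodes a MADS-box factor that in the mouse forebrain regulates synapse number in response to activity.

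The V1 samples carried neuronal RNA at every age: all 8 neuron marker genes were tested, and their summed signal per litter ran from 35391 to 40328 at P14, from 32697 to 38992 at P28 and from 29475 to 38967 at P60. Some sums of other cell types lay wholly higher after P14. The mature oligodendrocyte sum, over the 5 of 7 markers tested, was 3895 to 7356 at P14, 8712 to 14281 at P28 and 9823 to 13926 at P60. The striatum sum (2 of 5 tested) was 1142 to 1733, then 2286 to 2728, then 1964 to 2700, and the choroid plexus sum (2 of 4 tested) was 384 to 713, then 924 to 1536, then 797 to 1178. The 7 astrocyte markers summed to between 11683 and 22508 at P14, highest in litter 1, 11206 and 12426 at P28, and 9677 and 11946 at P60. In other lists most markers were above the background level, among them C1qa, C1qb, Csf1r, Cx3cr1 and Tyrobp of microglia, Olig1 and Pdgfra of oligodendrocyte progenitors, and Calb1, Wfs1 and Tdo2 of the hippocampal list in all 10 litters, and Folr1 and Clic6 of choroid plexus in 9. Prox1, Kl, Top2a, Aif1, Olig2 and Cspg4 of the same lists did not exceed it in any litter. The part of other cell types and of the dissection in the results was not tested. That level is the 95th percentile of the 15 Bacillus control probe sets of a chip, namely 98.4 on the A arrays, 153 on the B arrays and 252 on the C arrays. The samples are bulk tissue, so fewer cells of a type and less RNA per cell cannot be told apart.

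One library stands apart. In P14 litter 1 the Gapdh signal at the 3' end was 9.57 to 12.2 times that at the 5' end, against 0.741 to 1.32 times on the other arrays, and Actb gave 12.2 to 12.8 against 1.04 to 1.5. This litter was over 1.5-fold away from the mean of P14 litters 2 and 3 in 17 of the 26 tested member probe sets, 7 of them lower and 10 higher, and in 48.7% of all tested probe sets. P14 litters 2 and 3 differed from each other that much in 1 of the 26 and in 16.6% of all. Its part in each result was not tested beyond refitting without it, and those values stand beside the results they change. P60 litters 1 and 4 on chips A and B and P60 litter 2 on chip C also correlated less with the remaining arrays, and a restricted set leaves these arrays and P14 litter 1 out.

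Mef2c carried the only member call. Probe set 114712_at fell from P14 to P60, and it was lower in every P60 litter than in every P28 litter and lower in every P28 litter than in every P14 litter. The array annotation gives it the symbol Mef2c but lists no accession for it, as for 104592_i_at. Probe sequences were not examined, so its assignment to Mef2c rests on the annotation alone. Of the other 6 Mef2c probe sets, 97357_at, 109748_at and 163739_at had log2 changes from P14 to P60 between -0.72 and -1.05 that did not pass the test with all litters. The other 3, all of chip A, overlapped between all ages and had changes between -0.09 and -0.14.

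Mef2c lies on the plus strand of chromosome 13. The 300-base windows around its 3 annotated starts in the RefSeq table (build GRCm38.p6), from 250 bases before to 50 after each start, are shown because Mef2c is the member that passed the test. Capitals mark matches to the E-box CANNTG, the sequence family bound by NeuroD and E proteins.
Mef2c chr13:83503784-83504083, plus strand: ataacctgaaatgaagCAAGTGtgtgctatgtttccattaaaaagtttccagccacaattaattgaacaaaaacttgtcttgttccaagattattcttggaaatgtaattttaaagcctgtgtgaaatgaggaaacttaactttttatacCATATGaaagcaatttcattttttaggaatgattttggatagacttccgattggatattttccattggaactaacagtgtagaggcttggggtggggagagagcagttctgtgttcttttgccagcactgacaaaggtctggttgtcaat
Mef2c chr13:83523406-83523705, plus strand: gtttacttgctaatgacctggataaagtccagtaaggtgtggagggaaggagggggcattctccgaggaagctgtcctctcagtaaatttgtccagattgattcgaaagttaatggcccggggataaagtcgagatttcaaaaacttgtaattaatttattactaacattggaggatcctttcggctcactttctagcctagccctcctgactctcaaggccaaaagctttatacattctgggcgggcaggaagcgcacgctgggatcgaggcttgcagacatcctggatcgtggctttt
Mef2c chr13:83573357-83573656, plus strand: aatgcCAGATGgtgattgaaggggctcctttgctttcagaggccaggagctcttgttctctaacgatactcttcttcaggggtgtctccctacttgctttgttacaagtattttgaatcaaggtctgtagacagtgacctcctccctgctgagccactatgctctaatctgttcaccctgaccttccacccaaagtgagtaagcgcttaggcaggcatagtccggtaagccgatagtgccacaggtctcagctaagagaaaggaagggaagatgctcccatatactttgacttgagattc
In the first window CAAGTG begins at position -234 from the start and CATATG at -100. The second holds no match. In the third the match at -245 is CAGATG, the form preferred by NeuroD proteins and itself a case of CANNTG. Over both strands, 72.3% of 32851 RefSeq promoter windows of the same length hold CANNTG and 17.2% hold CAGATG. All 10 members matched the table, with 13 windows. CAGATG was also found in 1 window each of Cux2 and Neurod2, and the MEF2 pattern, CTA and TAG with any 4 bases between them, in 0 of the 13, against 3.69% of all windows. A match describes letters only.

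On chip B, Mef2c 114712_at gave signals of 6791, 9297 and 8457 in P14 litters 1, 2 and 3. The P28 litters gave 3786, 3685 and 4344, and the 4 P60 litters 2912, 3309, 3125 and 2851. The ages were fully separate, with the step between P14 and P28 larger than that between P28 and P60. The mean was 8182 ± 1276 (SD, n = 3) at P14, 3938 ± 354 (SD, n = 3) at P28 and 3049 ± 209 (SD, n = 4) at P60, so the P14 mean was 2.68 times the P60 mean. In limma the log2 change from P14 to P60 was -1.40 (standard error 0.177, adjusted p 0.011), on the scale of log2(signal + constant). The adjusted p ran from 4.17e-05 to 0.108 over 21 alternative settings and was under 0.05 in 17 of them. It was 0.0556 without P14 litter 2 and 0.0571 without P60 litter 4, with log2 changes of -1.30 and -1.37. The change from P14 to P28 was -1.04 (standard error 0.189, adjusted p 0.145 in limma), and without P14 litter 1 it was -1.16 (adjusted p 0.0246).

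The other Mef2c probe sets of chip B are annotated to the same gene. Mef2c 109748_at gave 10201, 10201 and 9587 at P14, 6254, 6016 and 7529.6 at P28, and 5729, 6601, 7746 and 4559 at P60. All P14 litters, including litter 1, were above all later litters, and P28 and P60 overlapped. Its log2 changes were -0.60 (standard error 0.222, adjusted p 0.506) from P14 to P28 and -0.72 (standard error 0.208, adjusted p 0.139) from P14 to P60 in limma, the second being -0.47 (adjusted p 0.17) in the restricted set. For Mef2c 163739_at the P14 litters gave 430.1, 2163 and 1475, the P28 litters 505, 611 and 649, and the P60 litters 542, 397, 643 and 497. P14 litters 2 and 3 were far above every later litter and P14 litter 1 was among the lowest of all. With all litters the change from P14 to P60 was -1.05 (standard error 0.401, adjusted p 0.239), and without P14 litter 1 it was -1.69 (adjusted p 0.0062) but without P14 litter 2 it was -0.60 (adjusted p 0.466). From P14 to P28 it was -0.88 (adjusted p 0.663) with all litters, -1.52 (adjusted p 0.0421) without P14 litter 1 and -0.43 (adjusted p 0.771) without P14 litter 2.

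On chip A, Mef2c 97357_at gave 1854, 1938 and 1926 at P14, 1563, 1261 and 1402 at P28, and 1035, 749, 1117 and 1093 at P60. Here P14 litter 1 lay beside the other P14 litters, and the ages again did not overlap. The means were 1906 ± 45.7 (SD, n = 3), 1409 ± 151 (SD, n = 3) and 999 ± 170 (SD, n = 4). The change from P14 to P60 was -0.92 (standard error 0.19, adjusted p 0.0617 in limma), and -0.94 (adjusted p 0.028) without P14 litter 1. Without P60 litter 3 it was -0.98 (adjusted p 0.0485), but without P14 litter 2 it was -0.91 (adjusted p 0.172). The adjusted p was under 0.05 in 5 of 21 alternative settings, and the highest was 0.216, with only the ages compared. The change from P28 to P60 was -0.49 (adjusted p 0.894).

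The remaining Mef2c probe sets of chip A carry consecutive numbers and moved together by litter rather than by age. Mef2c 104590_at gave 1183, 3984 and 3826 at P14, 2234, 3761 and 2767 at P28, and 1743, 4000.1, 2399 and 2026 at P60. Mef2c 104591_g_at gave 407, 2117 and 2068, then 1166, 1691 and 1481, then 661, 1824, 1579 and 913. Mef2c 104592_i_at gave 698, 3819.7 and 4094, then 2088, 3724 and 2784, then 1243, 4181, 2424 and 1325. In all 3, P14 litter 1 was the lowest litter of the 10 and P60 litter 2 stood beside P14 litters 2 and 3, so the ages overlapped. P14 litter 1 had 0.303, 0.194 and 0.176 times the mean of the other P14 litters. The adjusted p from P14 to P60 was 0.905, 0.945 and 0.923 in limma with all litters, and 0.226, 0.193 and 0.223 without P14 litter 1. Their direction turned with the litters used, the changes from P14 to P60 running from -0.74 to 0.17, from -0.93 to 0.30 and from -1.10 to 0.29 over the alternatives. The suffixes g and i mark probe sets outside the standard unique design, which may share probes with others. Probe sequences were not examined.

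**Figure D1:**
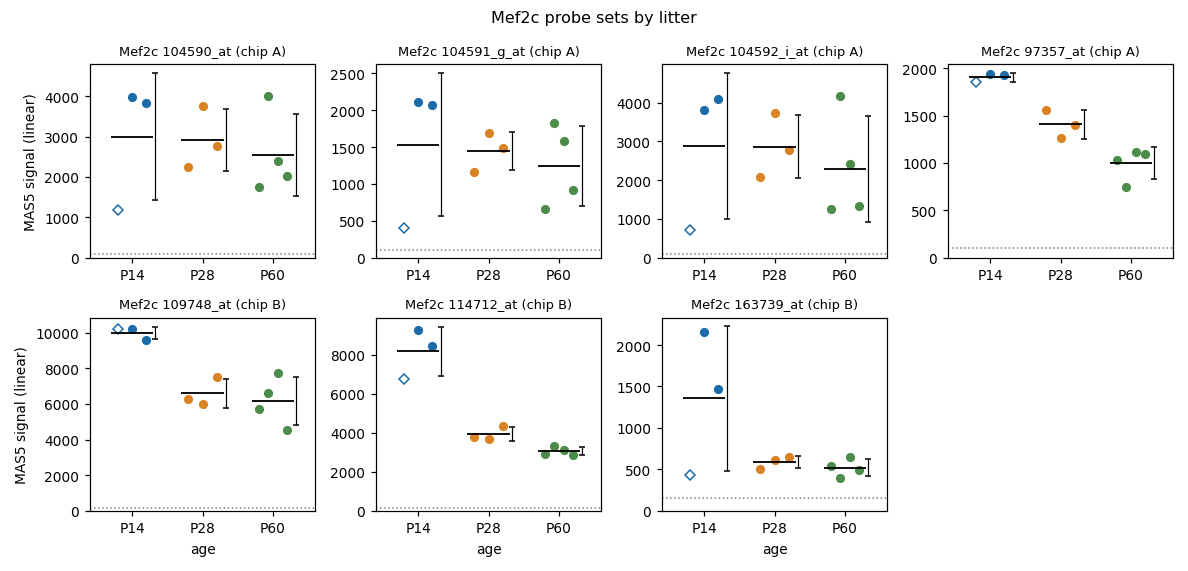
MAS5 signal (linear axis from 0) of the 7 Mef2c probe sets in each litter at P14, P28 and P60; each point is a litter, the open diamond is P14 litter 1, bars are means, error bars are SD and the dotted line is the Bacillus control level. In 114712_at and 97357_at the 3 ages are separate, while in 104590_at, 104591_g_at and 104592_i_at P14 litter 1 is the lowest of the 10 litters and the ages overlap.

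The genes on chip B whose log2 signal over the 10 litters was most like that of Mef2c 114712_at were sought among 6345 tested probe sets with 1 symbol. The most alike was L1cam 110182_at, a neural cell adhesion molecule (Pearson r = 0.976), followed by 1500004A13Rik 110105_at (r = 0.967) and Dnmt3a 113658_at, a DNA methyltransferase (r = 0.962). These correlations are descriptions over litters that share the 3 ages and the same arrays. The 3 genes were picked for likeness to a probe set that fell, so their own lower signal after P14 is no separate result. L1cam 110182_at gave 3535, 4612 and 3978 at P14, 1687, 1269.9 and 1917 at P28, and 1145, 1440.1, 1663 and 1163 at P60. It fell, with a log2 change from P14 to P60 of -1.55 (adjusted p 0.0111 in limma, 0.0592 without P14 litter 2 and 0.0574 without P60 litter 4), and its other tested probe set, 99800_at, had a change of -0.20 (adjusted p 0.853). Dnmt3a 113658_at gave 1956, 2597 and 2652 at P14, 1257, 1371 and 1081 at P28, and 852, 804, 885 and 719.6 at P60. Its P14-to-P60 change was -1.49 (adjusted p 0.00937, and 0.0556 without P14 litter 2), and its other probe sets were too dim to be tested. 1500004A13Rik 110105_at gave 561, 592 and 548, then 358, 378 and 385, then 339.6, 308, 337 and 339.5, a change from P14 to P60 of -0.68 (adjusted p 0.108).

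Tbr1, the deep-layer T-box factor, had a single probe set, and its age course turned on P14 litter 1. Tbr1 102700_at gave 9346, 2150.0 and 2849.5 at P14, 4492, 5119.7 and 4325 at P28, and 4819.8, 4336, 5745 and 5382 at P60. P14 litter 1 was the highest of all litters, at 3.74 times the mean of the other P14 litters, which were themselves the lowest of all. With all litters the change from P14 to P60 was 0.38 (standard error 0.391, adjusted p 0.655 in limma). Without P14 litter 1 it was 1.02 (standard error 0.173, adjusted p 0.0175), with both P14 litters below every later litter. Without P14 litter 2 it was -0.035 (adjusted p 0.971), so the direction rested on which P14 litters entered.

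Cux1 and Cux2, homeodomain factors of upper-layer neurons, gave no call in any comparison with all litters. Cux1 98073_at gave 1125, 1381 and 1360.5 at P14, 940.4, 943 and 1116 at P28, and 969.9, 1157, 1003 and 1009 at P60. P14 litters 2 and 3 were above all later litters. P14 litter 1 was above all P28 litters and, of the later litters, below P60 litter 2 only. The change from P14 to P28 was -0.35 (adjusted p 0.685 in limma). Cux1 104240_at, too dim to be tested, gave 71.0, 99.2 and 82.7 at P14, 41.4, 129 and 109 at P28, and 244, 144, 111 and 183 at P60. Its P14 and P28 means, 84.3 and 93.0, lay under the Bacillus level of chip A, and the 4 P60 litters lay above every P14 litter.

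The Cux2 probe sets did not share an age course. Cux2 140827_at on chip C gave 3328, 1639 and 1202 at P14, 1502, 902 and 2149.7 at P28, and 1158, 841, 1583 and 951 at P60. The ages overlapped, and the highest value was that of P14 litter 1, at 2.34 times the mean of the other P14 litters. The change from P14 to P60 was -0.74 (adjusted p 0.338 in limma), and -0.34 (adjusted p 0.62) without P14 litter 1. Cux2 167849_at, also on chip C, gave 414, 663 and 450.0 at P14, 396, 545 and 641 at P28, and 481, 1262, 393 and 458 at P60, with P60 litter 2 far above the rest. Cux2 93129_at on chip A gave 79.5, 274 and 226, then 134, 239.7 and 362, then 48.6, 286, 258 and 75.1. P14 litter 1 and P60 litters 1 and 4 were below the Bacillus level there, the same litters that had the lowest Mef2c 104592_i_at signals.

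Neurod1, Neurod2 and Neurod6, the helix-loop-helix activators, gave no call, and every one of their probe sets overlapped between P14 and P60. Neurod2 105901_at on chip B gave 2505, 3205 and 3269.8 at P14, 3053, 3075 and 3463 at P28, and 3443, 3232, 3215 and 4318 at P60. On chip A, Neurod2 98808_at gave 688, 796 and 977 at P14, 992, 756 and 1027 at P28, and 781, 865, 729 and 787 at P60. In both the litters of an age spread about as widely as the ages, with SDs of 424, 231 and 521 around means of 2994, 3197 and 3552 for 105901_at.

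The Neurod6 and Neurod1 signals were low. Neurod6 98857_at gave 364, 265 and 96.9 at P14, 211, 196 and 237 at P28, and 239, 88.2, 393 and 377 at P60, and 1 litter at P14 and 1 at P60 were under the Bacillus level. Neurod1 163624_i_at on chip B gave 355, 169 and 184, then 181, 272 and 235, then 392, 169, 222 and 344, all above that level and all overlapping. Neurod1 92717_at on chip A, not tested, gave 188, 134 and 141 at P14, 118, 109 and 101 at P28, and 149.5, 156, 142 and 90.5 at P60. The P28 litters of this probe set lay below the P14 litters, with P60 litter 4 lowest of all.

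Id2, the inhibitor of E proteins, was lowest at P60. Id2 93013_at gave 8538, 4390.3 and 4203 at P14, 4321, 4972 and 3461 at P28, and 2951, 2947, 2517 and 2671 at P60. All 4 P60 litters lay below all earlier litters, P14 and P28 overlapped, and P14 litter 1 stood at 1.99 times the mean of the other P14 litters. The change from P14 to P60 was -0.96 (standard error 0.255, adjusted p 0.124 in limma) and -0.63 (adjusted p 0.0725) without P14 litter 1. From P28 to P60 it was -0.60 (standard error 0.255, adjusted p 0.894). Neither passed.

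**Figure D2:**
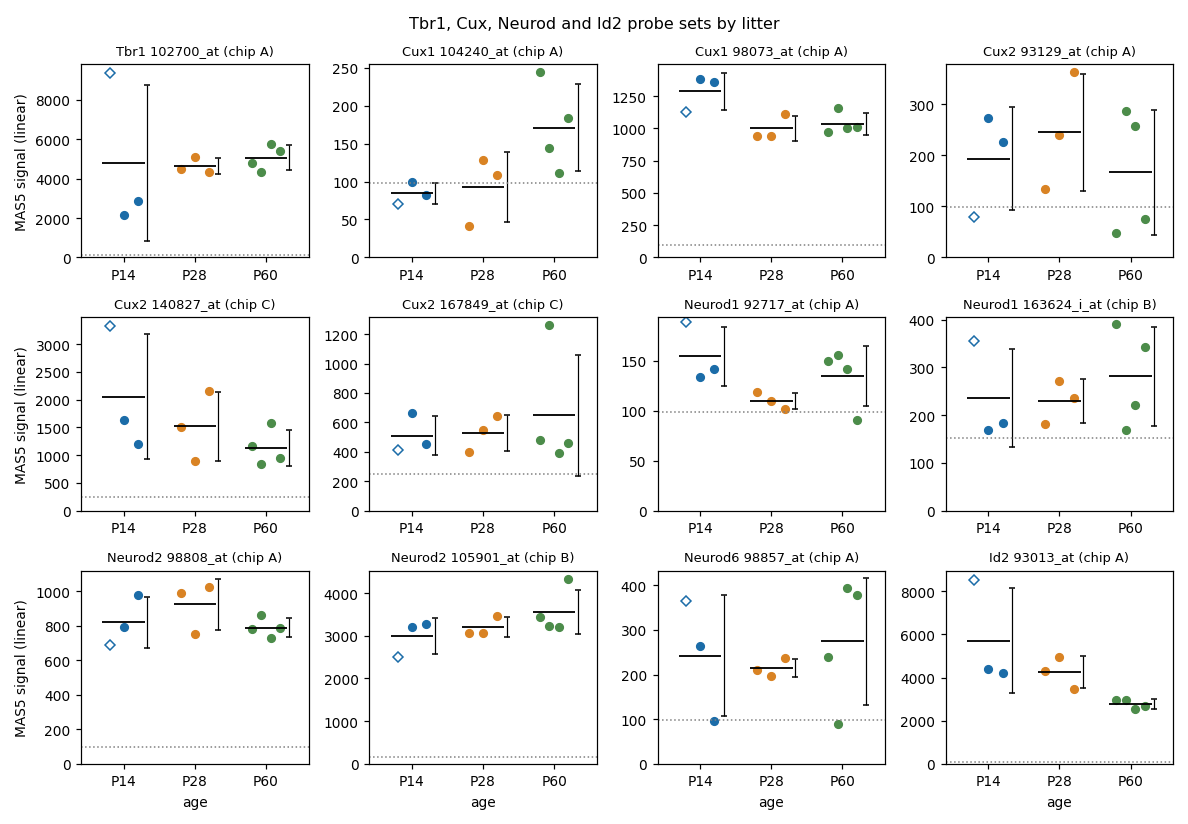
MAS5 signal (linear axis from 0) of the Tbr1, Cux1, Cux2, Neurod1, Neurod2, Neurod6 and Id2 probe sets in each litter at P14, P28 and P60; each point is a litter, the open diamond is P14 litter 1, bars are means, error bars are SD and the dotted line is the Bacillus control level. For Tbr1 the open diamond is the highest point and the other P14 litters are the lowest, and for Id2 the 4 P60 litters lie below all others.

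Sox4 and Sox11, the SOXC factors, had no call with all litters, and their probe sets differed in direction. Sox4 162737_i_at on chip B gave 4314, 2959.5 and 2551 at P14, 1662, 1667 and 1394 at P28, and 584, 1442, 2617 and 1053 at P60. The P28 litters lay below all P14 litters, and at P60 litter 3 alone reached into the P14 range. The change from P14 to P60 was -1.32 (standard error 0.381, adjusted p 0.139 in limma), and without P60 litter 3 it was -1.67 (adjusted p 0.0378), while in the restricted set it was -0.49 (adjusted p 0.332). Without P14 litter 1 it was -1.11 (adjusted p 0.177). From P14 to P28 it was -0.999 (standard error 0.407, adjusted p 0.59).

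On chip A, Sox4 160109_at gave 654, 1292 and 1155 at P14, 644, 892 and 710.5 at P28, and 388, 785, 708 and 227 at P60. Sox4 101430_at gave 339, 724 and 678, then 311, 413 and 303, then 268, 599, 328 and 282. In both, P14 litters 2 and 3 were the highest and P14 litter 1 stood among the later litters, at 0.535 and 0.484 times their mean. The change of 160109_at from P14 to P60 was -1.01 (standard error 0.372, adjusted p 0.231 in limma) and ran from -1.52 to -0.69 over the alternatives. Without P14 litter 1 it was -1.29 (adjusted p 0.0883). The change of 101430_at was -0.60 (adjusted p 0.365) with all litters and -0.93 (adjusted p 0.106) without P14 litter 1.

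The chip C probe sets of Sox4 carry the suffixes f and r, given to probe sets that may be shared with related transcripts or were built under relaxed rules. The suffix i of Sox4 162737_i_at on chip B also marks a probe set outside the standard unique design. Sox4 169131_r_at gave 660.1, 809 and 683 at P14, 1082, 1099 and 1642 at P28, and 986, 939, 806 and 1384 at P60. All P28 litters were above all P14 litters, the reverse of 162737_i_at, with a log2 change of 0.77 (standard error 0.263, adjusted p 0.475 in limma). Sox4 166175_f_at gave 3017, 1343 and 1139, then 2728, 5400.2 and 1017, then 2479, 1759, 1714 and 4081, and the spread within P28 covered the whole range of the other ages.

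Of the Sox11 probe sets, 130532_at on chip C gave 5553, 2251 and 2181 at P14, 1609, 1352 and 1661 at P28, and 1691, 738, 2101 and 2091 at P60. Every P14 litter was above every later litter, by little for P60 litters 3 and 4, and P14 litter 1 stood at 2.51 times the mean of the other P14 litters. The changes from P14 were -0.95 at both P28 and P60 (standard errors 0.409 and 0.383, adjusted p 0.605 and 0.255 in limma). Without P14 litter 1 both were -0.52 (adjusted p 0.724 and 0.447), and in the restricted set the change to P60 was -0.18 (adjusted p 0.676).

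The other Sox11 probe sets showed no separation of P14 from P60. Sox11 117310_at on chip B gave 1418, 1195 and 1144 at P14, 1426, 1531 and 1169 at P28, and 1148, 1329, 1276 and 1653 at P60. On chip A, Sox11 101631_at gave 769, 578 and 405, then 426, 823 and 518, then 643, 724, 605 and 789. Sox11 93669_f_at gave 462, 213 and 186, then 156, 249.8 and 244, then 178, 342, 231 and 237, with P14 litter 1 highest. Sox11 117084_at on chip B ran from 23.2 to 106 over the 10 litters, below the Bacillus level in every one, and was not tested.

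**Figure D3:**
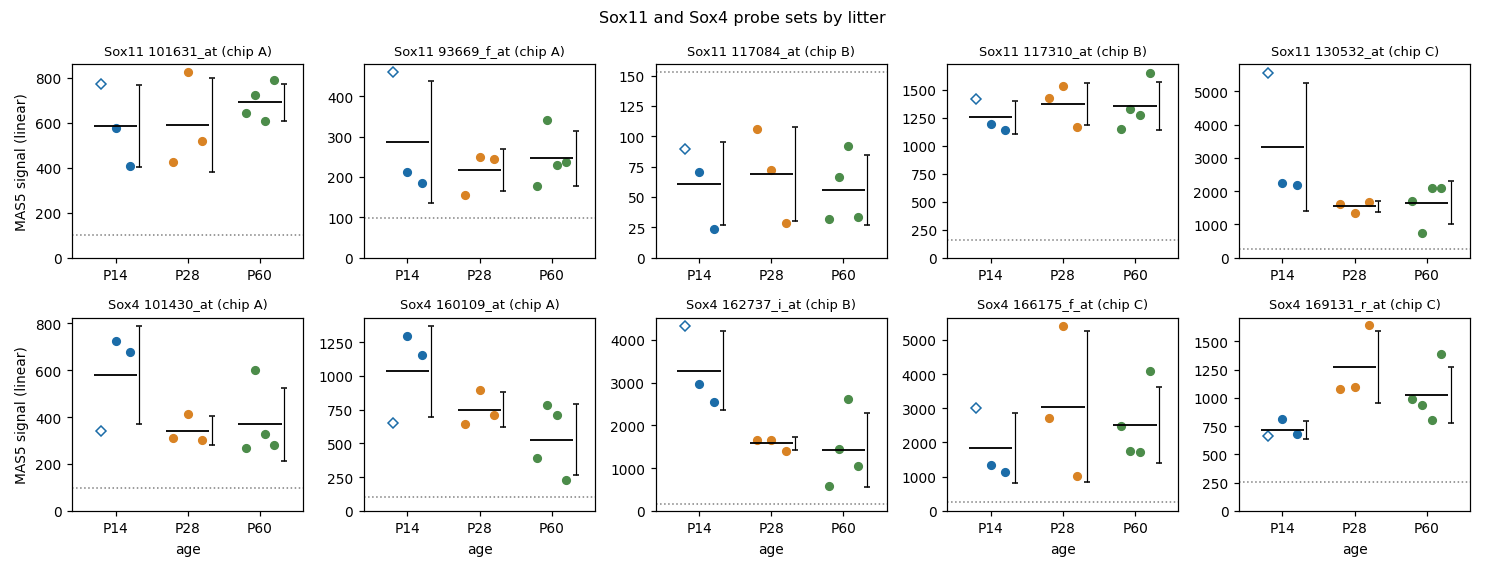
MAS5 signal (linear axis from 0) of the 5 Sox11 and 5 Sox4 probe sets in each litter at P14, P28 and P60; each point is a litter, the open diamond is P14 litter 1, bars are means, error bars are SD and the dotted line is the Bacillus control level. Sox4 162737_i_at is lower at P28 than at P14 and Sox4 169131_r_at is higher, and the 2251 and 2181 of P14 litters 2 and 3 for Sox11 130532_at are close to the highest P60 value, 2101.

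Counted over all members, the comparison of P60 with P14 gave 1 call among 26 tested probe sets, against 82 of 20724 in all (0.396%), of which 60 were lower at P60 (0.29%). An unadjusted p under 0.05 was reached by 8 member probe sets, all lower at P60: 4 of Mef2c, 2 of Sox4, 1 of Sox11 and that of Id2. Over all tested probe sets 15.7% reached that level, 7.93% lower and 7.81% higher. Non-overlapping ages with P60 lower were seen in 5 member probe sets, 3 of Mef2c and those of Sox11 130532_at and Id2, against 6.42% of all, and with P60 higher in 0, against 6.61%. Probe sets of the same gene are not independent. The median log2 change of the 26 was -0.13 and 17 were below 0, beside a median of 0.06 and 45.2% below 0 over all tested probe sets.

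Without P14 litter 1, 4 member probe sets passed from P14 to P60, against 497 in all (2.4%). They were Mef2c 97357_at, 114712_at and 163739_at, lower at P60 as were 1.66% of all, and Tbr1 102700_at, higher at P60 as were 0.738% of all. Without P14 litter 2 limma called 0 of the members and 0 of all probe sets, and without P60 litter 4 it called 0 of the members and 8 of all (0.0386%). In the restricted set 4 members passed, against 2.13% of all, and with array weights 12, against 17.5%.

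**Figure D4:**
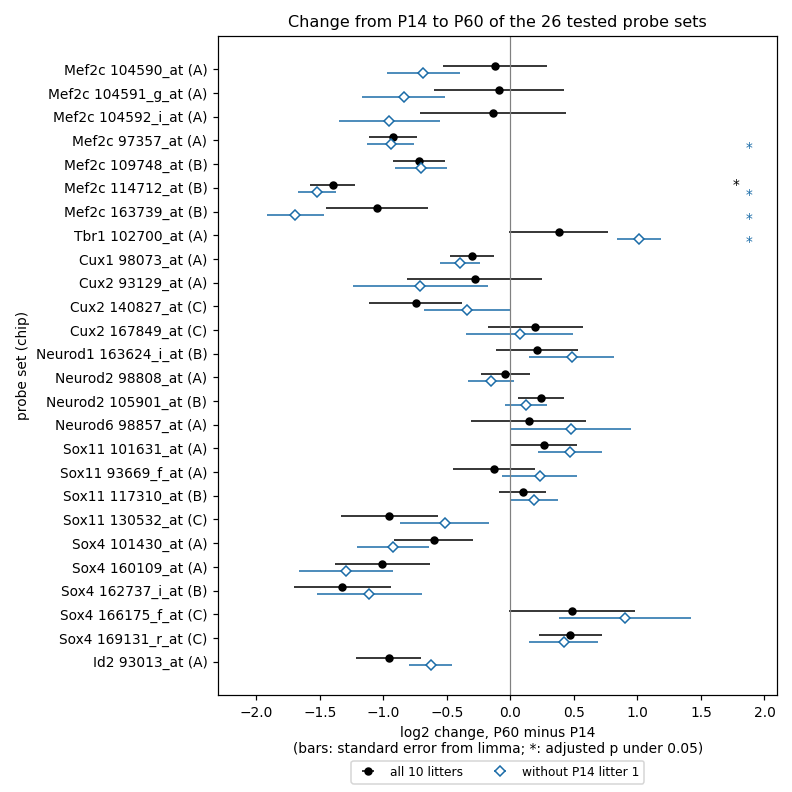
Log2 change from P14 to P60 (x axis) of each of the 26 tested member probe sets (y axis, chip in brackets); filled points use all 10 litters, open diamonds leave out P14 litter 1, bars are limma's standard errors and an asterisk marks an adjusted p under 0.05. With all litters only Mef2c 114712_at has an asterisk, at -1.40, and without P14 litter 1 Mef2c 97357_at, 163739_at and Tbr1 102700_at have one too.

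The comparison of P28 with P14 spans the weeks between eye opening and the peak of visual plasticity. In limma it gave 0 member calls, against 1 of 20724 in all (0.00483%), and 5 members had an unadjusted p under 0.05, against 7.87% of all (3.62% lower and 4.25% higher). These were Mef2c 109748_at and 114712_at, Sox11 130532_at and Sox4 162737_i_at, lower at P28, and Sox4 169131_r_at, higher at P28. The ages did not overlap in 6 members with P28 lower, against 8.41% of all, and in 1 with P28 higher, against 9.45%. The median log2 change of the members was -0.0048, with 13 of 26 below 0, beside 0.03 and 47.1% over all. Without P14 litter 1, Mef2c 114712_at and 163739_at passed, 2 of 26 probe sets called in all (0.125%), both lower at P28 as were 0.0772% of all. In the restricted set 2 members passed, against 1.0% of all, and with array weights 5, against 5.61%.

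From P28 to P60, limma gave 0 member calls and 0 of 20724 in all (0.0%). An unadjusted p under 0.05 was reached by Mef2c 97357_at and Id2 93013_at, both lower at P60, against 5.43% of all tested probe sets (2.38% lower and 3.04% higher). In all, 16 of the 26 members had a change below 0, against 51.0% of all. The same pair and Mef2c 114712_at, whose lowest P28 litter was 3685 and highest P60 litter 3309, were the 3 members with P60 wholly below P28, against 4.46% of all, and 0 lay wholly above, against 3.9%. A test over the 3 ages together called Mef2c 114712_at (adjusted p 0.0291) and no other member, among 23 probe sets in all (0.111%). It called 3 members without P14 litter 1 (0.627% of all), 2 in the restricted set (1.07%) and 9 with array weights (14.6%). The comparisons of P28 and of P60 with P14 share the P14 litters.

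The partners and relatives of the members were counted with 1 probe set per gene, over 11240 genes with a median log2 change from P14 to P60 of 0.05 and 45.5% below 0. In the MEF2 family (Mef2a, Mef2b, Mef2d) all 3 genes were tested and 0 passed in either direction, with a median of -0.02. Mef2d 104241_at gave 12221, 5939.6 and 6089 at P14, 6868, 6639 and 5995 at P28, and 5564, 6745, 7225 and 5648 at P60, with P14 litter 1 far above all. Mef2b 93417_at lay between 328 and 440.5 at P14, 386 and 539 at P28, and 418 and 566 at P60.

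E proteins, the partners of the NeuroD proteins, and helix-loop-helix inhibitors together gave 0 calls among 9 tested genes, with a median of 0.23. Hey1 95671_at, a Notch target, gave 1005, 809 and 929 at P14, 717, 654 and 709 at P28, and 1052, 1031, 1120.3 and 1099 at P60. P28 was the lowest age without overlap on either side, and the change from P28 to P60 was 0.61 (standard error 0.166, adjusted p 0.894). Hes5 161051_at, another Notch target, gave 27.1, 151 and 143, then 187, 217 and 162, then 229.9, 279, 160.3 and 143, with P14 litter 1 lowest. Of the other neuronal basic helix-loop-helix genes 3 of 8 were tested with 0 calls and a median of 0.11. Nhlh1 95929_at ran from 95.1 to 173 at P28 and from 219 to 318 at P60 (log2 change 0.84, adjusted p 0.894), and Atoh7 139808_at from 334 to 419.7 at P14, 436 to 545 at P28 and 111 to 642 at P60.

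The other SOX genes gave 0 calls among 8 tested of 9, with a median of 0.05. Sox8 135401_at gave 7811, 2629 and 2913 at P14, 3159.9, 3256 and 3587 at P28, and 3806, 1495, 2162 and 3145 at P60. Sox3 103302_r_at lay between 345 and 445 at P14, 321 and 471 at P28, and 420.1 and 951 at P60. In Sox8 the highest litter was P14 litter 1, as in Sox11 130532_at on the same chip.

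Immature neuron genes listed as regulated along with SOXC factors were the only list with calls when all litters were used. From P14 to P60, 2 of 8 fell, where 0.29% of all tested probe sets fell, 0 rose, and the list's median was -0.95. The list was chosen with earlier results of these data known, so setting it beside all probe sets only describes it. Without P14 litter 1, 4 of the 8 fell, Stmn2 and Cd24a being added, where 1.66% of all tested probe sets fell. These shares are over probe sets, while the lists count 1 probe set per gene. In the same fit 1 gene each passed in the upper-layer list (Bhlhe40) and the progenitor and area list (Bcl11a). Nrep 160522_at, a neuronal regeneration protein gene, gave 8474, 7011 and 5577 at P14, 2723, 3252 and 3125 at P28, and 1542, 1653, 2885 and 1703 at P60. Its log2 change from P14 to P60 was -1.86 (standard error 0.244, adjusted p 0.011 in limma, 0.0556 without P14 litter 2 and 0.0574 without P60 litter 4). Gap43 102389_s_at, the growth-cone protein gene, gave 3187, 3498 and 3013, then 2001, 1969 and 2283, then 1316, 1454, 1535 and 1533. The ages did not overlap, and the change from P14 to P60 was -1.13 (standard error 0.168, adjusted p 0.0179). For Gap43 the adjusted p lay between 0.0527 and 0.0878 without any 1 of P14 litter 2, P14 litter 3 and P60 litters 1, 2 and 4. A second Stmn2 probe set, 95670_at, for a microtubule regulator of growing axons, also fell (log2 change -1.48, adjusted p 0.011, and 0.0556 without P14 litter 2 and 0.0574 without P60 litter 4), from 7825, 6494 and 5072 at P14 through 3675, 3360.0 and 3284 to 2557, 2323, 2099.5 and 2084. The Stmn2 probe set counted in the list, 95669_g_at, changed by -1.16 (adjusted p 0.051). A further Stmn2 probe set, 95668_at, is not described here.

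Upper-layer factors beside the Cux genes gave 0 calls among 7 tested of 9, with a median of -0.24. Bhlhe40 104701_at, an activity-regulated repressor, gave 621, 422 and 537 at P14, 759.6, 726 and 1468 at P28, and 1010.0, 1279.9, 948 and 1823 at P60. All later litters were above all P14 litters, and the change from P14 to P60 was 1.17 (standard error 0.292, adjusted p 0.107, and 0.0488 without P14 litter 1). Rorb 140889_s_at, the layer IV receptor, gave 9833, 4682 and 4983, then 2791, 2907 and 4717, then 3413, 1737, 3918 and 2763. Its change from P14 to P60 was -1.10 (adjusted p 0.146), while another Rorb probe set changed by 0.08.

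Deep-layer factors beside Tbr1 gave 0 calls among 11 tested of 13, with a median of -0.14. Zfpm2 135290_at, a cofactor gene of corticothalamic neurons, gave 2311, 1902 and 1272 at P14, 1168, 1011 and 735 at P28, and 1054, 1208, 1217 and 1236 at P60. Its change from P14 to P28 was -0.87 (standard error 0.261, adjusted p 0.414 in limma). Foxp1 104415_at gave 1167, 576 and 775, then 415, 837 and 471, then 526, 314, 483 and 405, with all P60 litters below all P14 litters (log2 change -0.87, adjusted p 0.196).

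Of 13 cortical progenitor and area factors listed, 7 were tested, and all 7 were below 0 from P14 to P60, against 45.5% of all genes. Their median was -0.47, with 0 calls on the probe set kept per gene with all litters. The counts below 0 were 6 of 8 immature neuron, 6 of 11 deep-layer, 4 of 7 upper-layer and 4 of 6 interneuron genes. They were 2 of 3 in the MEF2 family, 1 of 3 other neuronal basic helix-loop-helix genes, 3 of 9 E proteins and inhibitors and 3 of 8 other SOX genes. No list was tested as a set. Without P14 litter 1, Bcl11a 106292_at passed, with a change of -0.90 (adjusted p 0.0403) against -0.47 (adjusted p 0.459) with all litters. Zbtb18 108046_at gave 4082, 3781 and 3673 at P14, 2338, 2579 and 3096 at P28, and 2624, 2781, 3108 and 3794 at P60. Klf7 104645_at, a factor of axon growth, gave 673, 665 and 688, then 401, 442 and 418, then 317, 516, 741 and 385, a change from P14 to P28 of -0.64 (adjusted p 0.598). Klf7 also had the probe sets 107020_at and 112898_at, whose values are not described here. Klf7 114906_at on chip B, not kept for the list, gave 1244, 903 and 573, then 90.4, 85.8 and 304, then 198, 98.6, 199.7 and 99.2. It fell, with a log2 change from P14 to P60 of -2.20 (standard error 0.387, adjusted p 0.0345 in limma, range 0.00592 to 0.189 over the alternatives). The P60 mean was under the Bacillus level of chip B, so that size depends on the added constant, and the call was lost in 12 alternatives, among them leaving out P14 litter 2 (adjusted p 0.129) or P60 litter 4 (adjusted p 0.11).

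Interneuron factors gave 0 calls among 6 tested of 13, with a median of -0.25. Maf 115390_at, expressed in interneurons of medial ganglionic eminence origin, gave 1142, 832 and 773 at P14, 692, 543 and 562 at P28, and 499, 478, 623 and 293 at P60, a change from P14 to P60 of -0.90 (adjusted p 0.124). Sp9 135978_at gave 98.9, 162 and 423, then 559, 127 and 664, then 579, 824, 667 and 489.9 (log2 change 1.49, adjusted p 0.187), with P14 litters 1 and 2 and P28 litter 2 under the Bacillus level of chip C.

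**Figure D5:**
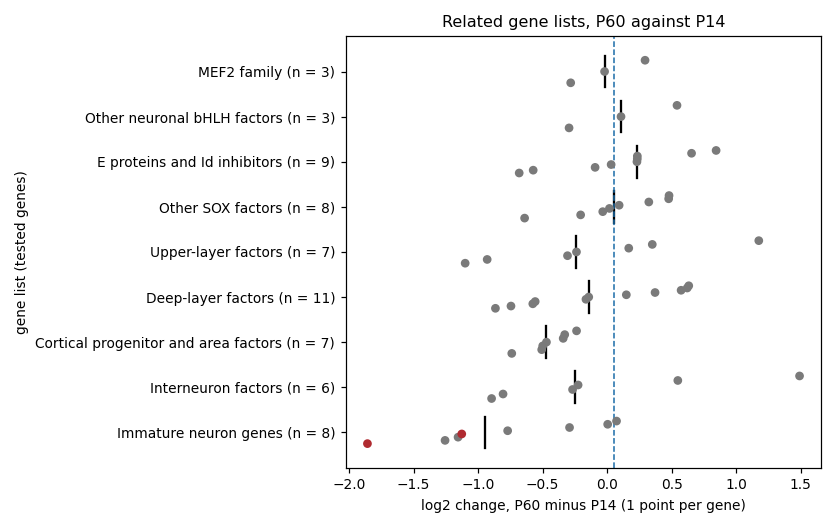
Log2 change from P14 to P60 (x axis) of the tested genes of each related list (y axis, number tested in brackets), 1 point per gene; red points have an adjusted p under 0.05, the black tick is the list's median and the dashed line is the median over all 11240 genes. With all litters 2 genes are red, both in the immature neuron list, whose median is -0.95.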

How the data were processed

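The deposited values are MAS5 signal intensities per probe set and array, per the submitters' processing notes; the sources used here do not give the MAS5 version. Each deposited array has a 2% trimmed mean between 500.1 and 500.4, and no further scaling was applied. Symbols came from the platform annotation, updated through the gene ID, and 10855, 10603 and 7739 probe sets on chips A, B and C carried 1 symbol.

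Signals were taken as log2(signal + constant), the constant being the 20th percentile of a chip's values (38.6, 57.8 and 44.0), and folds on this scale understate changes of dim probe sets. Probe sets above the chip's median (207, 252 and 183) on at least 3 arrays were tested (6819, 7005 and 6900, without 66 control probe sets per chip). Each chip was fitted with limma 3.58.1 in R 4.3.3 (lmFit, eBayes with trend, age as the only term, all 10 litters), with Benjamini-Hochberg adjustment over the 3 chips and a threshold of 0.05. The p-values assume separate litters, and precision is limited by the 10 litters. Data were also simulated for P60 against P14 over 20724 probe sets. Of 300 changes of 2 on the log2 scale 81.3% were called, and of 300 changes of 1 34.7%, with 23 false calls. The simulated noise was independent between arrays, with 1 spread per probe set in all litters. It held no deviations of whole arrays such as P14 litter 1, so these shares and false calls do not describe data with such arrays.

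Values by litter are given for every member probe set whose mean exceeded the Bacillus level at 1 age or more. Of each related list, called genes and otherwise the 2 with the smallest F-test p are named, with 1 probe set per gene (the brightest, chip A first). Bcl11a and Cd24a were named after their values were seen. Likeness is Pearson's r with the called member probe set on its chip. The members and lists were chosen with earlier results of these data known. The alternatives were other constants, quantile normalization, other filters, no variance trend, array weights, adjustment within a chip, only the ages compared, litter number as a block, each litter left out, and the restricted set.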

Additional observations from a re-analysis of the deposited data

Results flagged for a closer look

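Cux2 167849_at is listed because 1 of its P60 litters lies far from the others. P60 litter 2 gave 1262, against 481, 393 and 458 in litters 1, 3 and 4, a gap of 0.899 of the whole range, above Dixon's critical value for 4 samples. The other Cux2 probe set of the same chip, 140827_at, gave 841 in that litter, the lowest of the 4. The array of P60 litter 2 had the lowest mean correlation with the other arrays of chip C, at 0.860, and its part in this value was not tested. There were 26 groups of 4 litters looked at, and chance lists about 1 in 20.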

How the results depend on the processing

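The log2 changes followed were those of named probe sets with an unadjusted p under 0.05, and 2 more printed above, 17 of members and 31 of related or alike genes. Over these 48 and 1006 alternative values, 1005 kept their direction and 928 their side of the threshold, 39 newly passed and 38 no longer did. The reversed value among them was the P14-to-P60 change of Tbr1, -0.035 without P14 litter 2, against 0.38 with all litters and 1.02 without P14 litter 1. Over all 26 tested member probe sets the sign was less stable: values on both sides of 0 were found for 12 from P14 to P28, 16 from P28 to P60 and 10 from P14 to P60, which include the chip A trio of Mef2c, Cux2 93129_at and 167849_at, both Neurod2 probe sets, Neurod6 and Sox11 93669_f_at. The number of member probe sets called from P14 to P60 was 1 in the main analysis (0.396% of all tested probe sets). It was 12 with array weights (17.5% of all), 4 in the restricted set (2.13%) and 0 with only the ages compared. With 1 litter left out it was 0 to 4. It was 4 without P14 litter 1 (2.4% of all) and 0 without P14 litter 2 or P60 litter 4 (0.0386% for the latter). Without P14 litter 2, limma called 0 probe sets of any gene. From P14 to P28 the count, 0 in the main analysis, was 5 with array weights (5.61% of all) and 2 in the restricted set (1.0%). With 1 litter left out it was 0 to 2, being 2 without P14 litter 1 (0.125% of all). From P28 to P60 it was 0 under every alternative run. The F-test's count, 1 in the main analysis, was 9 with array weights (14.6%), 2 in the restricted set (1.07%), 0 with quantile normalization or without the variance trend, and 0 to 3 with 1 litter left out. The cause of these differences was not tested. With litter number as a replicate block, in which P60 litter 4 is a level of its own, 0 member probe sets were called in each comparison and the change of Mef2c 114712_at from P14 to P60 was -1.37 (adjusted p 0.108). Litter numbers were not used to pair the samples in the main analysis. Deviations of same-numbered litters from their age means correlated at -0.08 to 0.16 over 27 pairs, of which 4 were over 0.1. For litters of other numbers the range was -0.21 to 0.25 over 72 pairs, of which 4 were over 0.1. With 3 or 4 litters per age these values cannot decide whether the numbers pair the litters. Every alternative was run, the fit on only the ages compared not for the F-test. Quantile normalization moved the median of all probe sets by less than 0.1 on the log2 scale. Values near the Bacillus level, as in Neurod1, Neurod6, Cux1 104240_at and Cux2 93129_at, limit what could be seen for those probe sets.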
